A study of Mus musculus with 6 samples.

Results

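The 10 acyl-CoA thioesterases described here are Acot1, Acot2, Acot3, Acot4, Acot7, Acot8, Acot9, Acot11, Acot12 and Acot13. They were picked by symbol from the 16538 genes of an RNA-Seq table of the inguinal fat pad (iWAT), which lies under the skin of the mouse groin, and all 10 were listed. The choice was made with the genotype difference of these same samples already known, so their AKO against control values are selected on that contrast and are given as a description. The table lists 13 Acot symbols in all. Acot5, Acot6 and Acot10 are outside the chosen set and are mentioned where their reads touch a member.

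Both groups came from cold-acclimated, chow-fed mice, and the labels give 10 days of cold at a housing temperature of 8°C, while the study's text gives a longer stay. The control group, labelled wt, held 3 samples from fl/fl littermates, in which Nrg4, the gene of the secreted growth factor neuregulin 4, is flanked by loxP sites and intact. The AKO group, labelled NRG4-AKO, held 3 samples from mice that carry the same floxed alleles together with Adiponectin-Cre, which is active in adipocytes and leaves Nrg4 in the other cells of the tissue. Each sample was a pool of RNA from 2 mice, and the age and sex of these mice were not given in the sources used here. No sample from a warm mouse was in the table, so cold induction of Acot11 or any other member was not measured.

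Acyl-CoA thioesterases cut fatty acyl-CoA into free fatty acid and coenzyme A, the opposite of what acyl-CoA synthetases do. Type I enzymes (Acot1 to Acot6 in the mouse) are closely related neighbors on a single chromosome and several of them are textbook targets of the fatty acid receptor PPARα, while type II enzymes are built around hotdog-fold domains and lie apart from that cluster. Acot11, also called brown fat-inducible thioesterase, is known from brown fat, where it hydrolyzes long-chain acyl-CoA and limits the use of fatty acids for heat.

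Sequence is given first because it sets what a read count of these genes can resolve. Acot1 and Acot2 differ in where their proteins go (cytosol and mitochondria) but had 95.55% identical coding bases over 1236 aligned positions, with a longest identical run of 273 bases. The stretch shown is 120 coding bases of the last exon (exon 3 of 3 in both genes) on the plus strand of GRCm38, and the capitals mark the 5 bases that differ.
Acot1, chr12:84017219-84017338: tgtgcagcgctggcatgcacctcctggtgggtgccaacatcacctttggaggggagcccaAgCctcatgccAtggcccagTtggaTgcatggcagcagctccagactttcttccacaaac
Acot2, chr12:83992941-83993060: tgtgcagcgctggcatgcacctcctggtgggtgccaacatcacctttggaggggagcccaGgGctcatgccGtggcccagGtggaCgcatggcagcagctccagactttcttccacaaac
Of the windows of 100 bases along the transcripts, 17.1% for Acot2 and 12.4% for Acot1 occurred word for word in another gene, and all such Acot2 windows were found in Acot1. A read that falls wholly in such a window cannot be assigned to a single gene. Another close pair was Acot9 and Acot10 (97.19% identical coding bases), although only 0.705% of the Acot9 windows were shared. Acot3 was close to Acot5 (85.35%), Acot2 (84.16%) and Acot1 (84.01%). Acot5 was also close to Acot2 (83.98%) and Acot1 (83.21%). Acot7 and Acot13 had no shared window.

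Acot11 (chr4:106744555-106804998, minus strand, GENCODE M21 on GRCm38) is spread over 6056 exon bases, of which 20.9% overlap exons of Fam151a on the opposite strand. Whether reads were counted by strand is not given in the sources used here, so reads over those bases cannot be told apart, and Fam151a itself is not among the listed genes. The same limit applies to 12.3% of the exon bases of Acot8 (Snx21 on the opposite strand) and to 4.53% of Acot12 (4833422C13Rik on the opposite strand). Of the exon bases of Acot3 20.6%, and of those of Acot4 9.71%, overlap 4732463B04Rik on the opposite strand or Gm49366 on the same strand. Counting by strand would not separate reads shared with Gm49366. That applies mainly to Acot3, which had 330 windows of 100 bases in common with Gm49366, while Acot4 had none. Acot2 (chr12:83987861-83993873), Acot1 (chr12:84009490-84018371), Acot4 (chr12:84038379-84048601) and Acot3 (chr12:84052144-84060402) follow each other on the plus strand of chromosome 12. Acot7 (chr4:152178134-152271855, plus), Acot8 (chr2:164792765-164804882, minus), Acot9 (chrX:155262443-155297654, plus), Acot12 (chr13:91741512-91786148, plus) and Acot13 (chr13:24817948-24831540, minus) lie apart. All 10 are annotated as protein coding.

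Acot11 and Acot2 were among the members whose AKO values lay below all control values. The 250 bases before their annotated starts are shown, with those of Acot4, a type I neighbor whose groups had almost the same mean. They are from RefSeq (GRCm38.p6), each read 5′ to 3′ on the gene's own strand. Capitals mark matches to the TATA box TATAAA and to the nuclear receptor motif AGGTCA on either strand (TTTATA and TGACCT in reverse).
Acot11, chr4:106805008-106805257, minus: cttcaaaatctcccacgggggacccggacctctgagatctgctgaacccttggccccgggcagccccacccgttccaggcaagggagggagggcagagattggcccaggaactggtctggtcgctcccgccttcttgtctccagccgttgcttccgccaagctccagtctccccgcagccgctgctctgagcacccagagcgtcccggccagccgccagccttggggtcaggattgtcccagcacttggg
Acot2, chr12:83987611-83987860, plus: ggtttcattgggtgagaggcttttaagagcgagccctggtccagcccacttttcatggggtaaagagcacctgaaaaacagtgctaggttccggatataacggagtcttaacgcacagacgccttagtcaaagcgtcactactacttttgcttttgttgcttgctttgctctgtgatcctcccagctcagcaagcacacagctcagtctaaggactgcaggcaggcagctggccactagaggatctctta
Acot4, chr12:84038129-84038378, plus: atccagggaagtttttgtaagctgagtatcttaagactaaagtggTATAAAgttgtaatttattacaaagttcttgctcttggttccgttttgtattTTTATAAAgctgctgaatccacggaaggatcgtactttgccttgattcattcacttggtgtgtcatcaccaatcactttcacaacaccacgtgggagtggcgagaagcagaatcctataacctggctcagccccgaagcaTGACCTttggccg
The windows of Acot11 and Acot2 held neither motif. Acot7 and Acot12, not shown, also had AKO values below all control values. The window of Acot7 held neither motif, and that of Acot12 held 1 AGGTCA match. That of Acot4 held 3 TATA matches, of which a pair overlap on opposite strands, and 1 AGGTCA match near its end. TATAAA occurs in 12.4% and AGGTCA in 14.0% of the 32851 promoter windows in the table. None of the windows of the 9 members in that table held the PPAR direct repeat (a pair of AGGNCA with a single base between them, 0.338% of all windows), the estrogen-related receptor motif TCAAGGTCA (0.387%) or the cAMP response element TGACGTCA (1.55%), the first and second of which contain or resemble AGGTCA. A second annotated start of Acot11 (window chr4:106799832-106800081) held 3 matches to the GC box GGGCGG, a motif found in 32.7% of all windows. Acot13 was not in the promoter table. Motif matches are letters only, and no binding was measured.

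Depth was nearly equal, from 17570335 to 18373707 reads on the listed genes. The deposited values are reads divided by a size factor, called normalized counts here, and a single read was worth 0.960 to 0.976 in the AKO samples and more, up to 1.08, in the controls. Nrg4, the targeted gene, was at 3128, 3102 and 3092 normalized counts in the control group and at 2577, 2627 and 2691 in the AKO group. The AKO values were lower in every sample (log2 fold change −0.24 ± 0.05 SE, limma adjusted p = 0.298). The table holds a single value for the whole gene, so reads of the floxed part could not be separated. The completeness of the deletion could thus not be checked from these counts. By qPCR, the study reported that Nrg4 mRNA was almost gone from iWAT and brown fat of AKO mice. All 10 adipocyte markers were listed, and their summed normalized counts ranged from 594110 to 636664 in the control and from 512353 to 587212 in the AKO samples. The summed skeletal muscle markers (18 of 18 listed) ranged from 707 to 29999.9 in the control and from 22093 to 127210 in the AKO samples, with control sample 1 at the low end. Mammary epithelial markers (8 of 10 listed) ranged from 21.5 to 1311 and from 159 to 1743, and lymphocyte markers (9 of 10 listed) from 178 to 1073 and from 160 to 1533. Macrophage markers (10 of 10 listed) ranged from 11497 to 16377 and from 14196 to 19640. The part of these cell types in the thioesterase values was not tested beyond a muscle covariate. Krt8, Krt14, Krt5 and Epcam were at 0 in control sample 2, and Myh7 was at 0 in control sample 1 and AKO sample 3.

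Acot11 had the widest log2 gap between the genotypes among the 9 tested members. Its normalized counts were 1172, 2002 and 1353 in the controls, against 523, 652 and 688 in AKO. The highest AKO sample thus lay well below the lowest control sample, and control sample 2 stood above the rest of its group. The means were 1509 ± 437 (SD, n = 3) and 621 ± 86.7 (SD, n = 3), so that the control mean was 2.43 times the AKO mean. On the log2(normalized count + 1) scale the difference was −1.25 ± 0.19 (SE), with a limma adjusted p of 0.151 over 13855 genes, which does not pass 0.05. DESeq2 on the recovered whole reads gave a log2 fold change of −1.28 and an adjusted p of 5.46e-10, which does. Across the alternatives run, the adjusted p of Acot11 ranged from 5.46e-10 (DESeq2) to 0.434 (without AKO sample 3), and the log2 fold change from −1.55 (muscle covariate) to −1.03 (without control sample 2). In a bulk sample, fewer cells that express Acot11 and less Acot11 RNA per cell cannot be told apart. The summed muscle markers were higher on average in AKO, with overlapping groups, and with their mean as a covariate the Acot11 difference was −1.55 (limma adjusted p = 0.0858). Without control sample 1, which had the fewest muscle reads, it was −1.41 (limma adjusted p = 0.208).

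**Figure D1:**
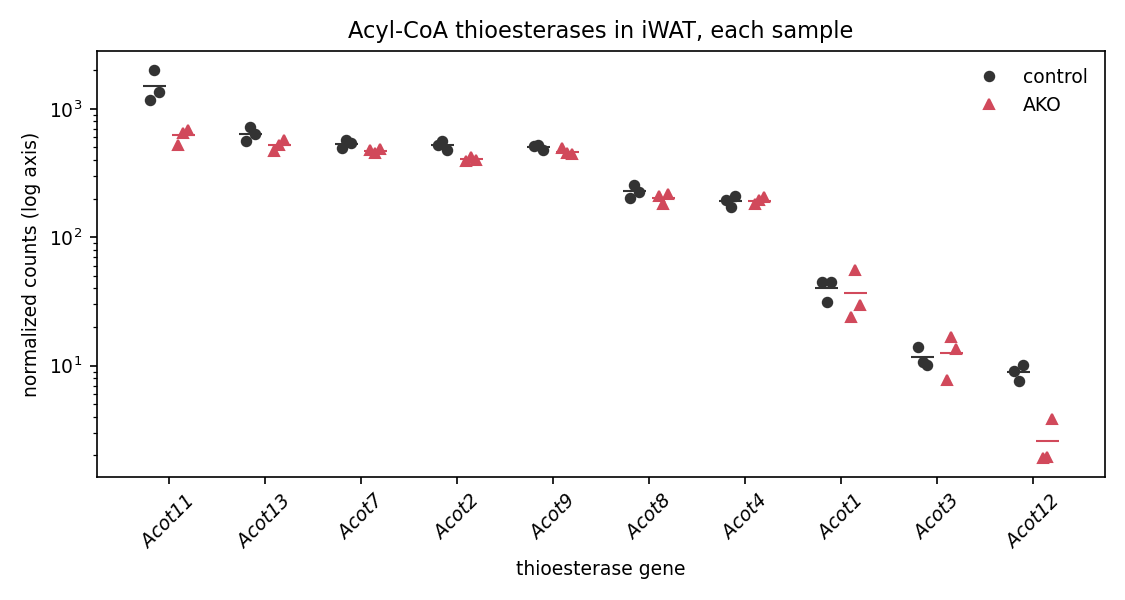
Normalized counts (log axis) of the 10 thioesterases in each control sample (circles) and AKO sample (triangles), with group means as horizontal lines, ordered by the control mean. The AKO samples of Acot11 (523 to 688) lie below its control samples (1172 to 2002), and the groups of Acot4 and Acot1 overlap.

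The other cytosolic type II enzymes spanned the whole range of levels. Acot13, a small hotdog-fold thioesterase also found at mitochondria that partners with phosphatidylcholine transfer protein, had 559, 727 and 637 normalized counts in the control and 471, 526 and 568 in the AKO samples. The AKO mean was lower (522 ± 48.8 against 641 ± 84.1, SD, n = 3 each), but AKO sample 3 exceeded control sample 1, and the difference of −0.29 ± 0.11 had a limma adjusted p of 0.522. Acot7, abundant in brain and active on arachidonoyl-CoA, had 493, 570 and 542 normalized counts in the control and 479, 452 and 490 in the AKO samples. Its groups were separated by a few counts only, between 490 and 493, and the difference of −0.17 ± 0.08 had a limma adjusted p of 0.569. The recovered reads, before division by the size factors, overlapped (491, 530 and 533 in the control and 499, 463 and 508 in the AKO samples).

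Acot12, a cytosolic acetyl-CoA hydrolase best known from liver that shares the START lipid-binding domain with Acot11, was barely detected. The control samples had 9, 7 and 10 reads and the AKO samples had 2, 2 and 4. No AKO sample reached the lowest control sample, yet the whole comparison rests on 26 against 8 reads, a ratio of 0.289 with an exact 95% interval of 0.113 to 0.656 that covers counting error only. Its mean was under 10 normalized counts, so it was the single member left out of the limma fit, and without that filter its difference was −1.50 with an adjusted p of 0.399. Acot3, at a mean of 12.1 normalized counts, was the member closest above the filter, and Acot12, at 5.74, lay below it.

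The mitochondrial members Acot2 and Acot9 had similar per-length levels in the control (12.9 and 12.1 RPKM, reads scaled by exon length and depth). With the length of the principal transcript in place of all exons, Acot9 was the higher (15.7 against 12.9), without overlap. Acot2, which hydrolyzes long-chain acyl-CoA in the matrix, had 522, 558 and 477 normalized counts in the control and 394, 425 and 401 in the AKO samples. No AKO sample reached the lowest control sample, and the means were 519 ± 40.8 and 406 ± 16.2 (SD, n = 3 each). The log2 difference was −0.35 ± 0.08, with a limma adjusted p of 0.315 and a DESeq2 adjusted p of 0.202. Acot9 had 516, 520 and 475 normalized counts in the control and 496, 450 and 447 in the AKO samples. These groups overlapped, and the difference of −0.12 ± 0.08 had a limma adjusted p of 0.711.

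Among the peroxisomal members, Acot4, which acts on succinyl-CoA, had the smallest difference of the tested members. Its normalized counts were 197, 173 and 208 in the control and 181, 193 and 205 in the AKO samples. The AKO range lay inside the control range, and the difference was 0.00 ± 0.11. Acot8, an enzyme of broad substrate range that also cleaves bile acyl-CoA, had 202, 254 and 227 normalized counts in the control and 211, 182 and 216 in the AKO samples. The groups overlapped, with a difference of −0.16 ± 0.12. Acot3, which acts on long-chain acyl-CoA, had 14.0, 10.8 and 10.2 normalized counts in the control and 7.68, 16.6 and 13.5 in the AKO samples. Its difference of 0.06 ± 0.39 had an error several times its size. The limma adjusted p was 0.985 for Acot3, 0.995 for Acot4 and 0.750 for Acot8.

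Acot1, the cytosolic type I enzyme and near copy of Acot2, did not show the ordering seen for Acot2. The controls had 45.2, 31.2 and 44.7 normalized counts, with 24.0, 55.6 and 29.9 in AKO. AKO sample 2 was the highest of all 6 and AKO sample 1 the lowest, and the difference of −0.21 ± 0.33 (limma adjusted p = 0.902) turned to 0.036 without AKO sample 1. Because Acot1 and Acot2 share sequence, their sum was also taken on the log2 scale, and it was 9.15, 9.21 and 9.03 in the control and 8.71, 8.91 and 8.75 in the AKO samples. The sum again separated the groups, and most of it was Acot2. The 6 type I genes of the chromosome 12 cluster (with Acot5 and Acot6) summed to 831, 841 and 797 normalized counts in the control and 654, 741 and 715 in the AKO samples, a log2 difference of −0.23. Acot2 made up 59.8% to 66.4% of that sum in the control and 56.1% to 60.2% in the AKO samples.

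Over the set, none of the 9 tested members passed an adjusted p of 0.05 in limma, where 2 of 13855 genes (0.0144%) passed. At an unadjusted p under 0.05, 3 members (Acot11, Acot2 and Acot13) were lower in AKO and none was higher, beside 4.69% of all tested genes that were lower at that level. edgeR passed no member, beside 3 or 5 genes in all, by the size factors used. DESeq2 passed 1, Acot11, beside 149 of 14923 genes (0.998%). The normalized counts of the control and AKO samples did not overlap for 3 of the 9 tested members (Acot11, Acot2 and Acot7, all lower in AKO), beside 8.31% of all tested genes that were lower without overlap. For Acot7 the recovered reads and the per-length levels did overlap. Since the members were chosen on this contrast, these numbers of members describe the set. The median log2 difference was −0.17 over the 9 tested members, −0.17 over the 8 without Acot11 and 0.01 over all tested genes. All 5 tested type II members had values below 0, from −1.25 to −0.12, and the 4 type I members ranged from −0.35 to 0.06.

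**Figure D2:**
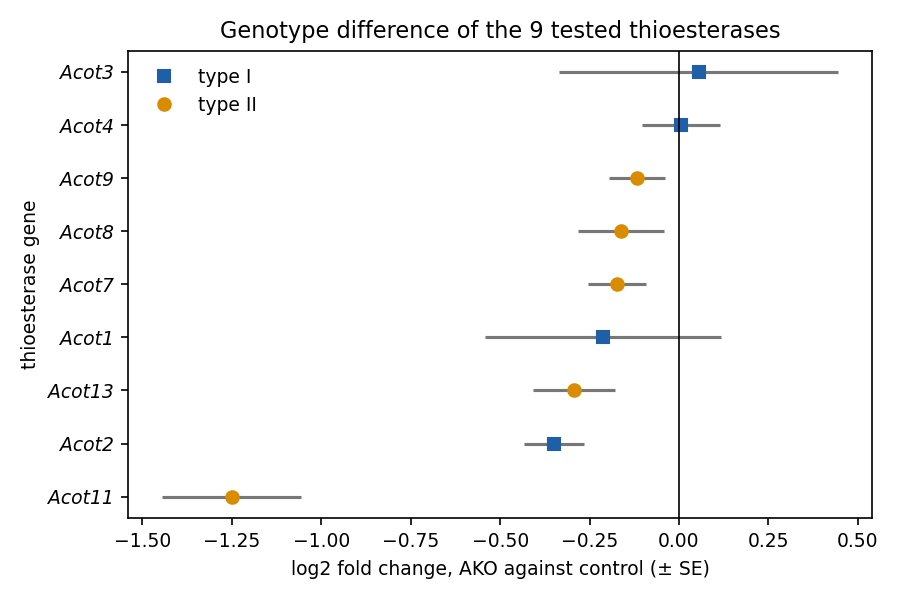
Log2 fold change of AKO against control (points) with its standard error (bars) from limma for the 9 tested members, type I as squares and type II as circles. Acot11 stands at −1.25, and the other 8 lie between −0.35 and 0.06.

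The contrast of Acot11 with the other members was named when the genes were chosen, with results of these samples known, so it is a description. To set Acot11 against its family sample by sample, the median log2(normalized count + 1) of the other 8 tested members was subtracted from that of Acot11. The result was 1.89, 2.46 and 2.04 in the control and 0.86, 1.18 and 1.22 in the AKO samples. This offset, which also holds the difference in gene length, averaged 2.13 ± 0.29 (SD, n = 3) in the control and 1.09 ± 0.20 (SD, n = 3) in the AKO group, without overlap. The difference between the groups, −1.04, stayed between −1.16 and −0.88 with any single sample left out. The ratio of Acot11 to Acot2 normalized counts, not corrected for length, was 2.25, 3.59 and 2.84 in the control and 1.33, 1.54 and 1.72 in the AKO samples, again without overlap.

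Levels were compared between genes per length, as RPKM computed here from the recovered reads, the exon length and the total on the listed genes. On this scale Acot13, whose exons span only 744 bases, had the highest level, 46.9 ± 4.64 in the control and 39.8 ± 3.79 in the AKO samples (SD, n = 3 each). In the control it was followed by Acot7 (13.7), Acot11 (13.5), Acot2 (12.9) and Acot9 (12.1), and neighbors within these 4 overlapped in their sample values, while the highest stood apart. Acot8 (6.20), Acot4 (1.58), Acot1 (0.564), Acot3 (0.186) and Acot12 (0.148) came next, each separated from the one above except Acot12 from Acot3. In the AKO samples Acot11 was at 5.83 ± 0.824, after Acot7 (12.7), Acot9 (11.6) and Acot2 (10.5), and it overlapped Acot8 (5.77). Acot11 moved from rank 3 to rank 5 of 10, and with the length of the principal transcript in place of all exons it moved from rank 4 to rank 6. On that length the control order was Acot7 (19.4), Acot9 (15.7), Acot11 (14.4) and Acot2 (12.9), and Acot7 did not overlap Acot9.

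Acot11 made up 10.8%, 14.9% and 11.6% of the summed per-length level of the 10 members in the controls, against 5.83%, 6.91% and 6.94% in AKO. Acot13 made up 42.0% to 44.5% in the control and 42.6% to 46.6% in the AKO samples, which overlapped. The summed level was 101, 118 and 104 in the control and 84.1, 88.7 and 93.2 in the AKO samples. Without Acot11 it was 90.2, 100.3 and 92.2 in the control and 79.2, 82.6 and 86.7 in the AKO samples, so the groups remained apart on this scale. The scale counts all reads in its total, including those of the muscle markers, whose summed counts were on average higher in AKO, and their part in these sums was not tested.

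**Figure D3:**
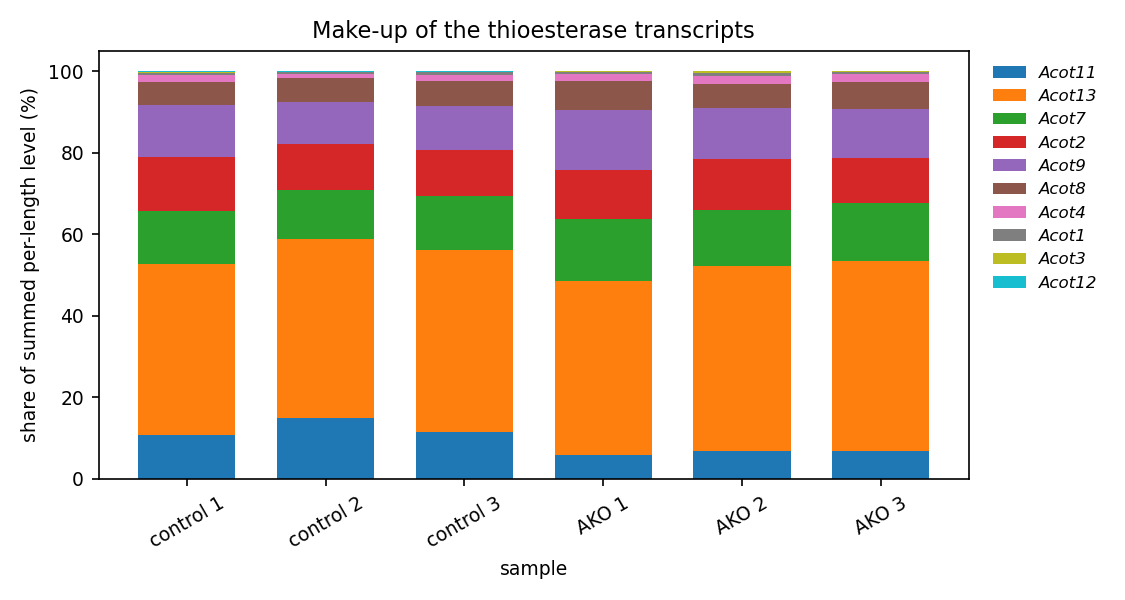
Share (%) of each member in the summed per-length level (RPKM over all exons) of the 10 thioesterases, one bar per sample. The Acot11 segment at the base is 10.8% to 14.9% in the controls and 5.83% to 6.94% in the AKO samples.

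The genes whose pattern over the 6 samples was most like that of Acot11 were Pomgnt1 (Pearson r = 0.997), the lipid droplet gene Cidea (0.996), the cytochrome oxidase subunit Cox7a1 (0.995), the mitochondrial fusion gene Mfn2 (0.995) and the citric acid cycle gene Suclg1 (0.994), out of 13854 genes. The r is a description with no p, since the samples fall into the genotype groups and 162 genes exceeded 0.95. Cidea had 4901, 7346 and 5343 normalized counts in the control and 2821, 3542 and 3483 in the AKO samples. Cox7a1 had 453, 751 and 518 in the control and 212, 285 and 310 in the AKO samples. Both shared with Acot11 the high control sample 2 and the low AKO sample 1. Pomgnt1 had the highest r but a far smaller spread, from 1258 to 1384 normalized counts in the control and from 1093 to 1151 in the AKO samples.

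Acot2 was most like the mitochondrial isocitrate dehydrogenase Idh2 (r = 0.997), the fatty acid transporter and very long-chain acyl-CoA synthetase Slc27a2 (0.994), the coenzyme A synthesis kinase Pank1 (0.994), Aldh9a1 (0.994) and the transcript ENSMUST00000082391.1 (0.992). Pank1 had 1616, 1818 and 1316 normalized counts in the control and 825, 901 and 828 in the AKO samples. Among the members, Acot11 correlated with Acot2 at r = 0.944 and with Acot13 at 0.929, and with Acot1 at 0.187. Acot1 was most like Alg12 (r = 0.991), 2210015D19Rik (0.989), Tspan33 (0.985), 4930578M01Rik (0.984) and Faf2 (0.983), all of whose groups overlapped. Acot1 and Acot2, despite their shared sequence, had an r of 0.272.

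**Figure D4:**
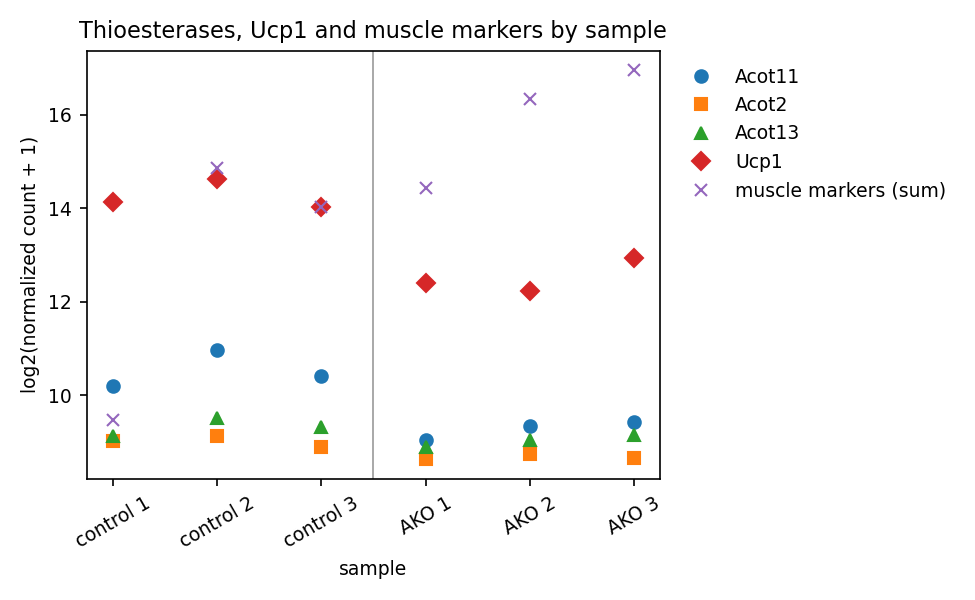
Log2(normalized count + 1) of Acot11, Acot2, Acot13, Ucp1 and the summed skeletal muscle markers in each sample, control left and AKO right of the gray line. Acot11 and Ucp1 are lower in every AKO sample than in any control sample, and the muscle sum is lowest in control sample 1 (707 normalized counts).

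Other genes that make, bind, use or split acyl-CoA give the setting of these values. Of 17 other thioesterases and CoA hydrolases, 13 were tested, none passed limma or DESeq2, and the median log2 difference was −0.10 (lowest −0.22, highest 0.07). The highest by normalized count were Hibch, a hydrolase of valine breakdown (3334 ± 172 in the control and 3019 ± 24.1 in the AKO samples, normalized counts, SD, n = 3), the peroxisomal CoA hydrolase Nudt7 (2200 ± 164 and 2121 ± 146) and the protein depalmitoylase Lypla1 (1903 ± 74.8 and 1737 ± 127). Of 22 acyl-CoA synthetases, 17 were tested with a median of −0.11 (lowest −1.51, highest 1.83), 13 were below 0 and 4 above, none passed limma and 3 passed DESeq2, all lower in AKO (Acsl5, Acss1 and Slc27a2, named after their values were seen). Slc27a2, with 350, 491 and 270 normalized counts in the control and 103, 147 and 130 in the AKO samples, had a log2 difference of −1.51 ± 0.22, beside −1.25 ± 0.19 for Acot11. The synthetase with the highest normalized counts, Acsl1, which makes long-chain acyl-CoA, had 101654 ± 3420 and 92996 ± 5151 normalized counts, with a difference of −0.13 ± 0.10. The next by normalized count were the fatty acid transporter Slc27a1 (24854 ± 1455 and 23094 ± 1863, −0.11 ± 0.09) and the acetyl-CoA synthetase Acss2, whose AKO mean was the higher one (9009 ± 2925 and 11218 ± 2606, 0.35 ± 0.25, limma adjusted p = 0.739). The highest value of the list, 1.83 ± 0.75, was that of Acsl6, named after its values were seen, at 3.84 ± 2.73 and 17.1 ± 10.8 normalized counts with overlapping groups (limma adjusted p = 0.534). With the muscle covariate the Acsl6 difference was 0.84 (limma adjusted p = 0.665).

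Of 13 genes of acyl-CoA binding and acyl transfer, 12 were tested with a median of −0.07. None passed limma and 2 passed DESeq2, both lower in AKO (Cpt2 and Slc25a20, the latter named after its values were seen). The binding protein Dbi had 16672 ± 1683 and 15863 ± 550 normalized counts and a difference of −0.07 ± 0.09, and the carnitine acetyltransferase Crat had 13224 ± 1820 and 10620 ± 243 and −0.31 ± 0.10. The mitochondrial carnitine palmitoyltransferase Cpt2 had 7130, 7757 and 6591 normalized counts in the control and 5941, 5748 and 5834 in the AKO samples, with a DESeq2 adjusted p of 0.0347.

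Of 24 tested PPARα targets other than the thioesterases, 22 had values below 0, with a median of −0.38. None passed limma and 12 passed DESeq2, all lower in AKO. Among those with the highest normalized counts were the β-oxidation subunit Hadha (−0.48 ± 0.12) and the dehydrogenase Acadl (−0.46 ± 0.09). The type I thioesterases, often named among such targets, had a median of −0.10, and Acot2 at −0.35 was the member near the median of that list. All 13 tested thermogenic genes had values below 0, with a median of −0.82. In limma 1 of them passed (Elovl3, a fatty acid elongase of brown fat, −1.64 ± 0.15, adjusted p = 0.0350) and 11 passed DESeq2. Ucp1, which uncouples respiration in thermogenic fat, had a difference of −1.75 ± 0.21 (limma adjusted p = 0.0703), and Acot11 at −1.25 lay within the range of this list, from −1.75 to −0.06. These lists, like the members, were drawn up with the genotype difference known.

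**Figure D5:**
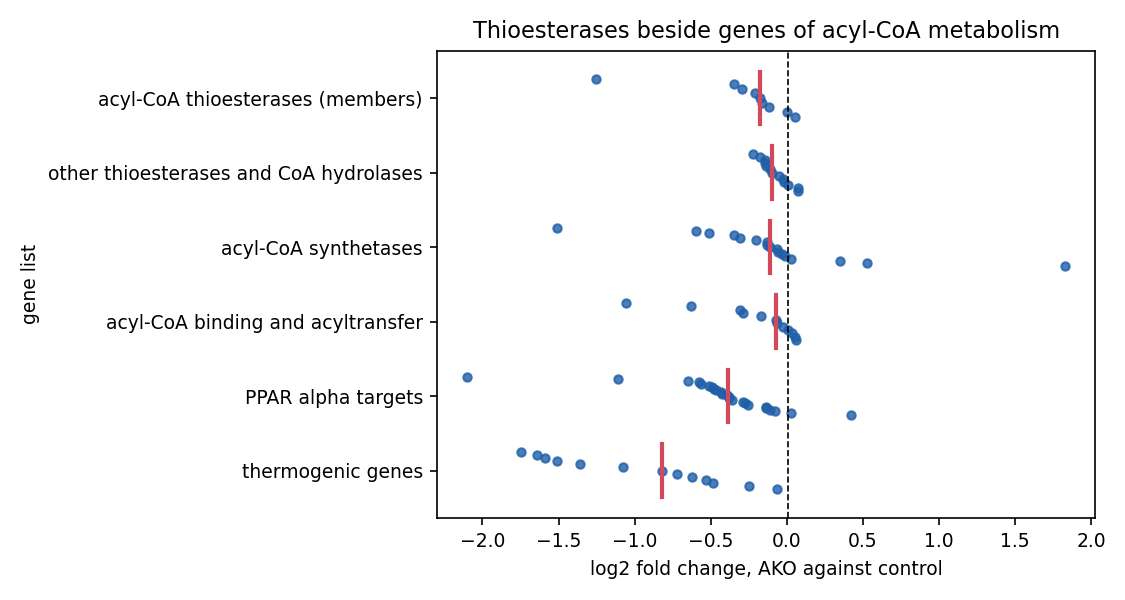
Log2 fold change of AKO against control for each tested gene (points) of 6 gene lists, with the list median as a vertical bar and the median of all tested genes (0.01) as a dashed line. The thioesterase median is −0.17 with Acot11 at −1.25 on the far left, and the thermogenic median is −0.82.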

How the data were processed

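RNA-Seq of iWAT from 3 control and 3 AKO samples was analysed. The authors used STAR and GRCm38.p6 for alignment, featureCounts with GENCODE M25 for counting and DESeq2 for testing. They deposited a signal per gene and sample, which is a count over the size factor of its sample, with no correction for gene length. The deposited log2 fold changes and p-values of the authors were not used. Every per-sample column was matched to a sample. Dividing by the step of each column gave whole reads for 100% of values (tolerance 0.001).

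The 13855 genes that averaged 10 normalized counts or more entered limma 3.58.1 (R 4.3.3, trend, Benjamini-Hochberg adjustment) on log2(value + 1), which understates changes of low genes. DESeq2 1.42.0 and edgeR 4.0.16 on the recovered reads, other pseudocounts (0.1, 10), filters and factors, a replicate block, a muscle covariate and leaving out each sample were alternatives. Scripts were tested on simulated data. Samples of a group were separate pools, and their reads differed beyond counting error (chi-square from 10.4 to 21.2 per degree of freedom). Named genes were all members, Nrg4, the 3 most abundant and any limma-called genes of each list, and the 5 genes most correlated with Acot11, Acot1 and Acot2. Not every gene under this rule is reported here. Members and lists were chosen with earlier results of these data known, and the TATA and GC box motifs were added after the data were seen. Exon lengths and positions are from GENCODE M21 (GRCm38).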

Additional observations from a re-analysis of the deposited data

How the results depend on the processing

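Depth limits Acot12 (26 reads in the control and 8 in the AKO samples) and, less so, Acot3 and Acot1. The number of genes called was 2 by limma and became 6 with at least 10 normalized counts in every sample, 5 with edgeR and RLE factors, 149 with DESeq2 (113 lower, 36 higher) and 0 with the skeletal muscle covariate, and it ranged from 0 to 3 with single samples left out. The number of members called was 0, and 1 with DESeq2, which is Acot11. The causes were not tested. With single samples left out, log2 differences close to 0 turned sign: Acot1 ranged from −0.55 (without AKO sample 2) to 0.036 (without AKO sample 1), Acot3 from −0.16 (without AKO sample 2) to 0.35 (without AKO sample 1) and Acot4 from −0.070 (without control sample 2) to 0.063 (without control sample 3). Acot11, Acot2, Acot7, Acot8, Acot9 and Acot13 kept a negative sign in the 16 alternatives. The deviations of same-numbered control and AKO samples from their group means correlated at 0.14, −0.35 and 0.24. Differently numbered samples were not compared, so whether the replicate numbers pair the samples was not tested. With the replicate number as a block, 2 genes were called (none lower in AKO), and Acot11 had an adjusted p of 0.0529. The control share of Acot13 was 38.8% with principal transcript lengths against 43.5%, and that of Acot7 was 15.6% against 12.8%.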
